A study of Mus musculus with 95 samples.

Results

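Kidneys of 9 pristane-treated SNF1 mice were compared with kidneys of 5 untreated SNF1 mice at week 14, the last time point of a series of 95 kidneys. The members of the comparison were all arrays labelled week 14, diseased or normal, and every gene that the array annotation names was described, above all genes outside the interferon, complement, Fc receptor, chemokine, pattern recognition, antibody and fibrosis processes that the study's text covers. SNF1 mice are F1 offspring of the SWR and NZB strains, and per the study's methods they were females that received pristane, a hydrocarbon oil, by intraperitoneal injection at 9 weeks of age, so that week 14 counts from the injection. The untreated mice of the same week were age matched and also develop lupus with age, so both groups share the lupus-prone background and the comparison shows what differs beyond it. Each array held RNA of the whole kidney of 1 mouse, measured on the Affymetrix HT MG-430 PM array.

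In lupus nephritis, antibodies and immune complexes lodge in the glomerulus, and complement, Fc receptors and interferon draw monocytes, macrophages and lymphocytes into the kidney. The proximal tubule carries most transport and intermediary metabolism of the organ and runs on oxidation in mitochondria. Injured tubule cells lose transporters and enzymes and switch on secreted injury proteins such as Lcn2, keratins and vimentin. In RNA of whole kidney, fewer cells of a type and less RNA per cell cannot be told apart.

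The 14 arrays had medians of 4.22 to 4.43 on the log2 scale, and 18.8% of their values lay at the floor of the scale, 2.21. Of 7 kidney markers measured, Umod and Kap were above 13 on all arrays, and the Y-linked gene Eif2s3y lay at 2.21 to 2.24 throughout, as in females. The kidney markers were not all steady: 5 of the 7 had a negative log2 fold change, and 1, Slc12a3, passed as lower. Their mean lay -0.46 to -0.02 from the untreated mean in pristane mice and -0.09 to 0.14 from it in untreated mice. Pristane mice 1 and 2 stood apart from the other 7: their arrays had a mean correlation of 0.994 and 0.995 with the untreated arrays but 0.987 and 0.983 with their own group. Pristane mice 4, 5 and 6 carried adrenal RNA. The mean of 12 adrenal genes lay 2.88, 2.14 and 1.58 above the untreated mean on the log2 scale in these mice, and within 0.17 of it in the other 11, and none of the 12 passed the test between the groups, also at an unadjusted p under 0.05. The difference between 3′ and 5′ control probe sets of Gapdh and Actb, a sign of RNA integrity, was 1.80 to 2.16 after pristane and 1.73 to 1.90 in untreated kidneys. A list of 8 perirenal fat genes ranged from -2.13 to 0.05 after pristane and from -0.69 to 1.18 in untreated kidneys, and none of them passed although 4 had an unadjusted p under 0.05. The part of these differences in the results was not tested, and results without the mice concerned are given below.

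Of 17097 genes measured, 514 were higher and 172 lower after pristane at an adjusted p under 0.05 and over 2-fold in limma's empirical Bayes test with Benjamini-Hochberg adjustment. These are 3.01% and 1.01% of all genes. The median log2 fold change was 1.70 among the higher and -1.19 among the lower genes, and 0.00 over all genes. Among the higher genes, 185 changed more than 4-fold and 48 more than 8-fold, against 13 and 3 among the lower genes. In 300 of the 514 higher genes every pristane mouse lay above every untreated mouse, and in 20 of the 172 lower genes every pristane mouse lay below, where 3.2% and 0.76% of all genes did so. Against the 46 untreated kidneys of weeks 0 to 12, all 9 pristane mice lay higher in 16 of the higher genes and lower in 1 of the lower genes, where 0.129% and 0.0292% of all genes did so. Spread was wider after pristane: the SD over mice had a median of 0.698 after pristane and 0.246 in untreated kidneys over the 686 genes, and it was larger after pristane in 661 of them. Of these 686 genes, 397 higher and 171 lower ones were on no list, and under no symbol prefix, of the processes the study's text covers. These lists were short, with 25 genes listed for interferon and 18 for fibrosis. Genes of these processes can therefore remain among the 397 and 171, and outside these processes has only this meaning below.

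Leaving out any 1 mouse changed the count of lower genes, relative to its size, far more than that of higher genes. With all mice, the lower genes had adjusted p-values from 0.00584 to 0.0499 in limma's test. The count of lower genes was 342 without pristane mouse 1 and 374 without pristane mouse 2, but 34 to 113 without any other pristane mouse and 4 to 34 without any untreated mouse. The count of higher genes ran from 297 without untreated mouse 3 to 651 without pristane mouse 2, and it was 323, 302 and 315 without untreated mice 2, 4 and 5. With the 3 mice that carried adrenal RNA left out, 67 genes were higher and 0 lower in limma's test, where 1963 and 1728 genes had an unadjusted p under 0.05. With the adrenal signal or the RNA integrity measure as a covariate, 250 and 64 genes were higher and 3 and 0 lower. With these and pristane mice 1 and 2 left out, which leaves 4 mice against 5, 678 were higher and 458 lower. Without pristane mice 1 and 2 alone, 760 were higher and 510 lower, but these mice were chosen by their arrays. All 686 genes kept their direction in each of these fits.

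The genes that rose most outside the listed processes were Lcn2, which binds bacterial iron carriers and is secreted by neutrophils and by injured tubules, and Ms4a7, a membrane gene of macrophages. Lcn2 had log2 values of 7.47, 4.54, 5.03, 4.88 and 5.39 in the 5 untreated mice and a lowest, median and highest value of 6.68, 11.41 and 12.15 after pristane. Pristane mouse 2 lay below untreated mouse 1, and the 7 mice other than 1 and 2 lay at 11.01 or above. The log2 fold change was 5.28 (standard error 0.88, adjusted p = 0.00859). Ms4a7 had 4.77, 4.91, 4.02, 4.05 and 4.11 in untreated mice, and 6.90, 8.85 and 9.40 as its lowest, median and highest pristane value. The groups did not overlap, and Ms4a7 was 19.3-fold higher (adjusted p = 0.000901).

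Lgals3bp, a secreted galectin-binding glycoprotein, had the smallest p-value among the higher genes outside these processes. Its values were 7.49, 7.41, 6.98, 7.10 and 7.08 in untreated mice and 9.29, 10.48 and 11.15 at the lowest, the median and the highest after pristane. The groups were separated by 1.80 on the log2 scale even with mice 1 (9.29) and 2 (9.69), and the gene was 8.78-fold higher (adjusted p = 0.000363). Ctss, a lysosomal protease of antigen-presenting cells, lay at 8.84, 8.83, 8.65, 8.60 and 7.92 in untreated mice and at 10.56, 11.89 and 12.24 after pristane, again without overlap (8.43-fold, adjusted p = 0.000901). Ms4a4c and Ms4a6b, relatives of Ms4a7, rose 11.9-fold and 9.39-fold, the macrophage surface protein Adgre1 9.09-fold while the B cell and myeloid receptor Cd72 had a log2 fold change of 3.32. Csprs, named as a component of the repeated Sp100-rs cluster, whose copies may share probes, lay at 6.53 to 7.55 in untreated mice and at 8.95 to 10.40 after pristane, without overlap (6.53-fold, adjusted p = 0.000901).

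Further large rises were in genes of other functions, and which cells of the kidney expressed them was not tested. Aoc1, an enzyme that oxidises histamine and polyamines, had values of 6.66, 5.81, 6.54, 5.90 and 6.30 in untreated mice and 6.76, 10.83 and 11.64 at the lowest, median and highest after pristane. Pristane mouse 2 lay 0.10 above the highest untreated mouse, and the rise was 15.7-fold (adjusted p = 0.0107). Serpina10, a plasma inhibitor of coagulation factors, was at 5.55, 5.50, 4.99, 5.21 and 4.65 in untreated mice and at 6.30, 9.51 and 10.09 after pristane, without overlap (14.3-fold, adjusted p = 0.0057). Ugt2b37, a glucuronosyltransferase, rose 12.3-fold, Ubd, a ubiquitin-like protein induced by cytokines, 12.8-fold and Clca3a2 10.6-fold. Ugt2b37 and Ubd lost the call in 10 and 8 of the 14 leave-one-out fits, with adjusted p-values reaching 0.0779 and 0.0741. BC023105 rose 17.7-fold (adjusted p = 0.00703), and the highest untreated kidney of earlier weeks reached 10.33, above all pristane mice (highest 9.37).

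**Figure D1:**
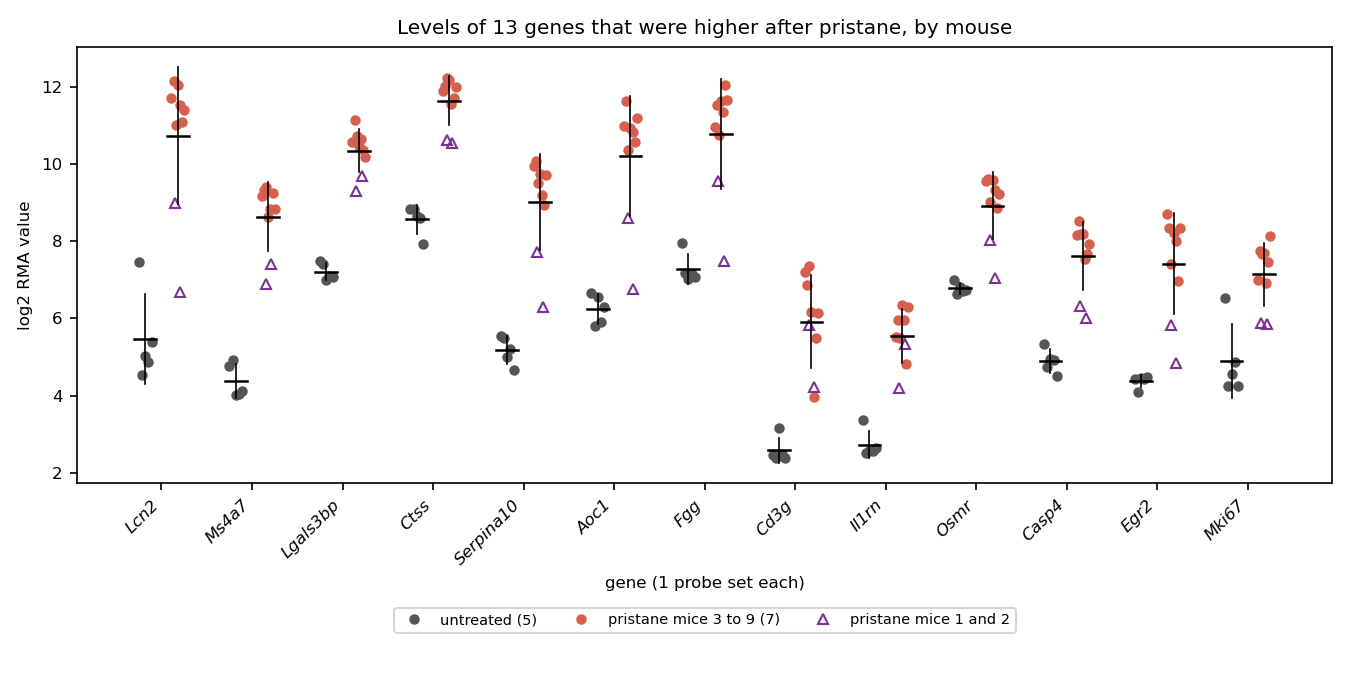
Log2 RMA values (y axis) of 13 genes that were higher after pristane at week 14, by mouse. Grey points are the 5 untreated mice, red points pristane mice 3 to 9, open triangles pristane mice 1 and 2, and black lines the mean ± SD of all mice of a group; for Ms4a7, Lgals3bp and Ctss the triangles lie between the groups but above all grey points, and for Lcn2 a triangle lies among them.

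Among the genes that fell, Hpd, which converts the tyrosine product 4-hydroxyphenylpyruvate, changed most. Its values were 10.41, 10.61, 10.42, 11.70 and 10.64 in untreated mice, and the lowest, median and highest pristane values were 4.22, 4.67 and 10.07. Mice 1 and 2 lay at 9.45 and 10.07, close under the untreated mice, and the other 7 between 4.22 and 6.55. The log2 fall of Hpd was 4.84 with a standard error of 1.04 (adjusted p = 0.0209), and 5.94 without mice 1 and 2. The call was lost in 3 of the 14 leave-one-out fits (adjusted p up to 0.0633). Bhmt, which remethylates homocysteine with betaine, had the smallest p-value of the lower genes and held in all 14 fits. It lay at 8.77, 9.42, 9.23, 10.22 and 9.66 in untreated mice and at 5.19, 6.23 and 7.95 after pristane. The groups did not overlap, and mice 1 and 2 (7.68 and 7.95) were the highest pristane values, for a fall of 3.17 on the log2 scale (adjusted p = 0.00584).

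Dnase1, the main secreted nuclease that digests extracellular DNA, was at 12.98, 13.33, 13.22, 13.53 and 13.40 in untreated mice. After pristane the lowest, median and highest values were 7.46, 9.31 and 13.13, and the highest, mouse 2, lay within the untreated range. Dnase1 fell by 3.43 on the log2 scale (adjusted p = 0.0402), a call lost in 11 of the 14 leave-one-out fits (adjusted p up to 0.0977). Serpina6, the plasma carrier of corticosteroids, fell by 2.97, and Cndp1, a dipeptidase that splits carnosine, by 2.39 on that scale (adjusted p = 0.018 and 0.0297). Dusp15, a phosphatase, fell by 2.33, Slc16a4, of the monocarboxylate transporter family, by 2.23, the cochaperone Dnajc12 by 2.08 and Sypl2 by 1.82 (adjusted p = 0.0307, 0.0333, 0.021 and 0.0492). Gm32960 and C730027H18Rik, which carry no gene name, fell by 2.15 and 1.79 (adjusted p = 0.0347 and 0.0376). For these genes other than Serpina6 and Dnajc12 the call was lost in 10 to 12 of the 14 leave-one-out fits.

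Igf2, Xpnpep3 and Gsta4 fell less but kept an adjusted p under 0.05 in all 14 leave-one-out fits. Igf2, a growth factor, was at 9.95, 10.37, 10.33, 10.35 and 10.16 in untreated mice and at 7.97, 8.39 and 9.90 after pristane, where mouse 2 held the highest value. It fell by 1.67 on the log2 scale (adjusted p = 0.00953) in a gene that ranged from 6.29 to 10.35 in the untreated kidneys of other weeks. Xpnpep3, a mitochondrial aminopeptidase, was at 5.31, 5.08, 5.11, 5.32 and 4.63 in untreated mice and at 3.20, 4.06 and 4.46 after pristane. The groups did not overlap, all 9 values were also under the 46 untreated kidneys of other weeks (4.65 or above), and mice 1 and 2 lay among the other pristane mice. The fall was 1.10 (adjusted p = 0.0129). Gsta4, a glutathione transferase that clears lipid aldehydes, fell by 1.09 and Cwh43 by 1.07 (adjusted p = 0.0135 and 0.0174), the latter lost in 2 of 14 fits.

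**Figure D2:**
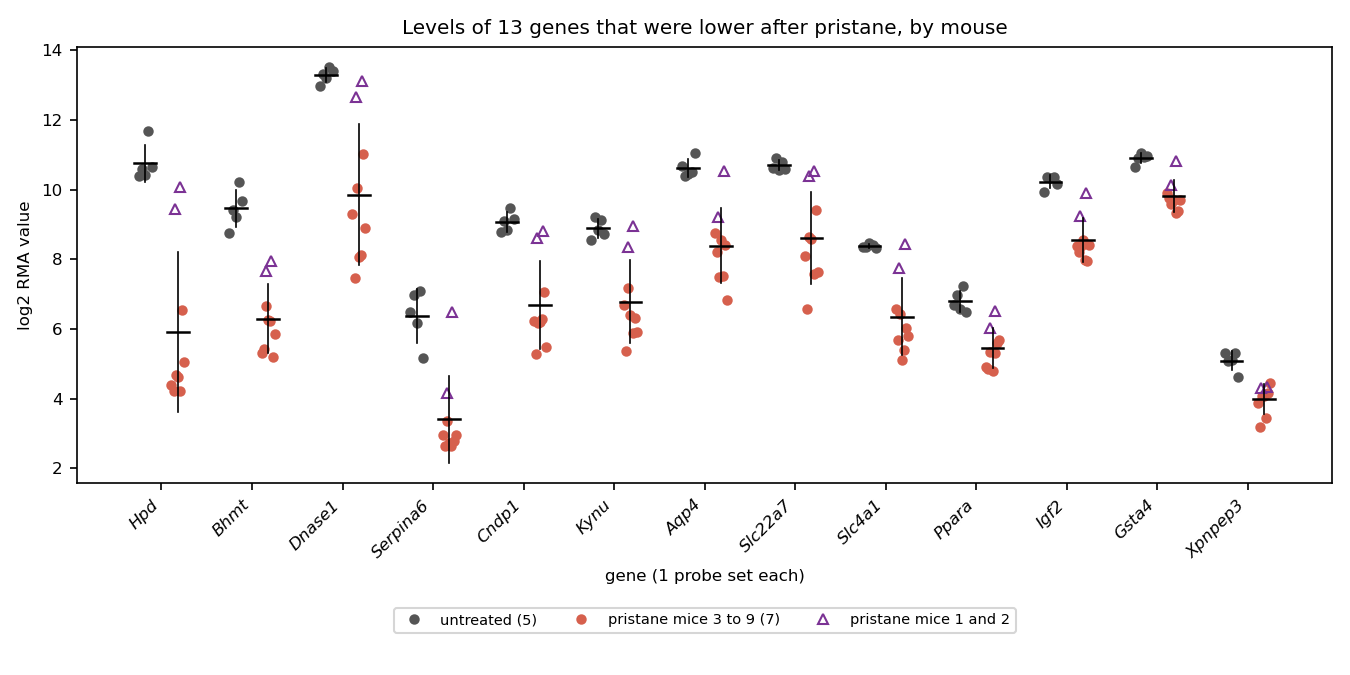
Log2 RMA values (y axis) of 13 genes that were lower after pristane at week 14, by mouse. Grey points are the 5 untreated mice, red points pristane mice 3 to 9, open triangles pristane mice 1 and 2, and black lines the mean ± SD of all mice of a group; in most genes both triangles lie near the grey points, as for Dnase1 (12.66 and 13.13), while Xpnpep3 shows them among the red points.

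Many genes of phagocytes rose. Members of the lists below are counted at an adjusted p under 0.05 whatever the fold change, where 6.97% of all genes were higher and 4.8% lower. Of 20 measured genes of myeloid immunoreceptor signalling, 14 rose and none fell (median log2 fold change 1.29, against 0.00 for all genes; 8 to 16 rose in the leave-one-out fits, and 2 without pristane mice 4, 5 and 6). Ptprc, the phosphatase CD45 of all leukocytes, rose 5.46-fold, Tyrobp, the adaptor of activating receptors, 5.47-fold, the adaptor Lcp2 4.54-fold and Sla, a brake on receptor signalling, 5.61-fold. All 9 pristane mice lay above the untreated mice for Ptprc (8.37 to 10.75 against 6.98 to 7.79) and for Tyrobp (8.57 to 10.58 against 6.40 to 7.85). Of 24 inhibitory and scavenger receptors of phagocytes, 11 rose and none fell (9 to 14 in the leave-one-out fits, and 3 without pristane mice 4, 5 and 6), led by Ms4a7 and Ms4a4c, then the C-type lectin Clec4a2 with a 7.80-fold and Ms4a6c with a 7.34-fold rise. Of 23 genes of macrophage lipid handling and lysosomes, 14 rose and none fell (9 to 15, and 2 without these 3 mice). Among them were Cd68, a lysosomal protein of macrophages (7.69-fold, adjusted p = 0.00404), Ctsc, a lysosomal peptidase (2.94-fold, adjusted p = 0.00813), and Apoe, the lipid carrier of macrophages (3.51-fold, adjusted p = 0.0189).

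Antigen presentation had the largest share of risen genes among the lists outside the processes the study's text covers. Of 17 measured genes of MHC class II and antigen presentation, 15 rose and none fell (median log2 fold change 1.66; 10 to 15 rose in the leave-one-out fits). Without pristane mice 4, 5 and 6 none of them passed in limma, although the median was 1.37 and 15 were higher at an unadjusted p under 0.05. The class II chains H2-Ab1 and H2-Eb1 rose 4.12-fold and 3.99-fold, the immunoproteasome subunit Psmb8 4.18-fold and Nlrc5, the activator of MHC class I genes, 4.14-fold (adjusted p = 0.0105, 0.0129, 0.0105 and 0.0209). For H2-Ab1 mouse 2, at 9.45, lay within the untreated range of 8.54 to 9.74, mouse 1 was at 10.47, and the other 7 lay at 10.93 to 11.85. Of 11 dendritic cell genes 4 rose, which were Itgax (CD11c, 4.26-fold), Cd83 (2.73-fold), Clec10a (2.73-fold) and the actin bundler Fscn1 (2.08-fold). The median of this list was 0.23, no member fell, and 3 to 4 rose in the leave-one-out fits.

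T cell genes rose in part. Of 22 genes of T and NK cells, 5 rose and none fell (2 to 7 in the leave-one-out fits), with a median log2 fold change of 0.35. Cd3g, a chain of the T cell receptor complex, was at 2.47, 2.39, 3.15, 2.48 and 2.38 in untreated mice and at 3.96, 6.13 and 7.37 after pristane. The groups did not overlap, mouse 1 (5.82) lay among the other pristane mice, and the rise was 10.1-fold (adjusted p = 0.00816). Cd3d rose 4.09-fold, the adhesion molecule Cd2 2.50-fold and the NK receptor chain Klrd1 1.59-fold (adjusted p = 0.0117, 0.0474 and 0.0481). The cytotoxic genes Prf1 and Gzmb did not pass (log2 fold change -0.05 and 0.62, adjusted p = 0.83 and 0.412). Of 18 genes of immune checkpoints and regulatory T cells, 6 rose and none fell (3 to 9). Icos, a costimulator of activated T cells, was at 2.65 to 2.66 in all 5 untreated mice and at 3.23, 4.90 and 6.02 after pristane (4.47-fold, adjusted p = 0.0142). Lgals9, a ligand of the inhibitory receptor TIM-3, rose 3.33-fold, the costimulatory ligand Cd86 2.81-fold and the inhibitory receptor Btla 2.54-fold.

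A minority of cytokine genes rose. Of 27 interleukins and receptors, 7 rose and none fell (3 to 10 in the leave-one-out fits). Il1rn, the natural antagonist of interleukin 1, was at 3.36, 2.51, 2.56, 2.56 and 2.65 in untreated mice and at 4.21, 5.52 and 6.34 after pristane, without overlap (7.06-fold, adjusted p = 0.00205). Osmr, the oncostatin M receptor, was at 7.0, 6.63, 6.82, 6.72 and 6.75 in untreated mice and at 7.04, 9.23 and 9.60 after pristane. Mouse 2 (7.04) lay 0.04 above the highest untreated mouse, and the rise was 4.40-fold (adjusted p = 0.0117). The alarmin Il33 rose 4.17-fold (adjusted p = 0.0122), and Lif, a cytokine of the oncostatin M family, 2.94-fold (adjusted p = 0.0309, lost in 11 of 14 fits). Of 22 genes of the TNF superfamily 4 rose and none fell (1 to 6), namely Tnfrsf12a, the TWEAK receptor (2.77-fold), the TNF receptor Tnfrsf1a (1.87-fold), Cd40 (1.82-fold) and the B cell factor Tnfsf13 (1.54-fold). Of 16 eicosanoid enzymes 4 rose and none fell (1 to 4). Alox5ap, which hands arachidonic acid to lipoxygenase, rose 4.46-fold and the prostaglandin D synthase Hpgds 3.46-fold. Of 16 genes of the NADPH oxidase, nitric oxide and arginine, 5 rose and 1 fell (in the leave-one-out fits 2 to 5 rose and 0 to 5 fell). The oxidase subunits Cybb and Ncf4 rose 3.68-fold and 2.90-fold, the GTPase Rac2 3.89-fold and the arginine transporter Slc7a2 2.98-fold.

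All 3 fibrinogen chains rose. Fgg was at 7.95, 7.18, 7.02, 7.15 and 7.07 in untreated mice and at 7.49, 11.34 and 12.06 after pristane. Mouse 2 (7.49) lay within the untreated range, mouse 1 was at 9.57 and the other 7 at 10.75 or above, for an 11.3-fold rise (adjusted p = 0.0124). Fgb rose 9.48-fold and Fga 7.26-fold (adjusted p = 0.018 and 0.0137). Of 21 genes of coagulation and fibrinolysis 6 rose and none fell (3 to 7 in the leave-one-out fits), the thrombin receptor F2r among them (2.44-fold). Of 17 genes of iron and heme, 4 rose and 1 fell (in the leave-one-out fits 1 to 6 rose and 0 to 2 fell). Cp, ceruloplasmin, which oxidises iron, rose 6.20-fold, Slc11a1, a metal transporter of phagosomes, 5.13-fold and Hmox1, which degrades heme, 2.24-fold. Tfrc, the transferrin receptor, fell by 0.82 on the log2 scale (adjusted p = 0.0296). Of 21 protease inhibitors 8 rose and 1, Serpina6, fell (4 to 10 rose). Slpi, an inhibitor of leukocyte elastase, rose 4.76-fold, Serpinb6b 2.89-fold and Serping1, the inhibitor of C1, 2.61-fold.

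Part of the genes of injured tubule epithelium and of the cytoskeleton rose. Of 20 keratins and genes of injured tubules 7 rose and none fell (median 0.96; 4 to 14 in the leave-one-out fits). Besides Lcn2 these included the hyaluronan receptor Cd44 (7.55-fold, adjusted p = 0.0122), the ciliary gene Dcdc2a (4.11-fold, adjusted p = 0.0231) and vimentin, Vim (3.19-fold, adjusted p = 0.0109). Vim lay at 11.47 to 13.19 after pristane and 10.53 to 11.27 in untreated mice, without overlap. Of 25 actin cytoskeleton genes 14 rose and none fell (7 to 17). Coro1a and Lcp1, actin regulators of leukocytes, rose 5.01-fold and 3.34-fold, and Tmsb10, a small protein that binds actin monomers, 3.24-fold. Tpm4, a tropomyosin, rose 2.70-fold. Of 20 annexins and S100 proteins 9 rose and none fell (4 to 9). Anxa1 rose 3.25-fold, Anxa2 2.49-fold, S100a4 3.57-fold and S100a6 3.45-fold, the last with an adjusted p of 0.0446 that was lost in 12 of the 14 fits.

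Part of the cell cycle and cell death genes rose. Of 29 cell cycle genes 14 rose and none fell (median 0.90). Mki67, a marker of dividing cells, was at 6.53, 4.26, 4.55, 4.88 and 4.26 in untreated mice and at 5.85, 7.46 and 8.13 after pristane. Untreated mouse 1 lay above pristane mice 1 (5.87) and 2 (5.85), and the rise was 4.76-fold (adjusted p = 0.0193, lost in 4 of 14 fits). Birc5, Prc1 and Top2a, which act in mitosis, rose 4.70-fold, 3.92-fold and 3.72-fold. The count of 14 shifted as single mice were left out, and it ran from 3 to 20 over the leave-one-out fits. Without pristane mice 4, 5 and 6 it was 0 in limma, with 19 higher at an unadjusted p under 0.05. Of 21 p53 targets and cell death genes 7 rose and none fell (4 to 11). Casp4, an inflammatory caspase that senses lipopolysaccharide, was at 5.34, 4.74, 4.95, 4.92 and 4.49 in untreated mice and at 6.0, 7.93 and 8.53 after pristane, without overlap (6.63-fold, adjusted p = 0.0057). Casp1, the inflammasome caspase, rose 4.37-fold, Mlkl, the executor of necroptosis, 2.90-fold and Casp12 2.88-fold.

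Among transcription factors, 10 of 27 immediate early and NF-kB genes rose and none fell (3 to 12 in the leave-one-out fits). Egr2 was at 4.09 to 4.47 in untreated mice and at 4.85, 8.01 and 8.71 after pristane, without overlap (8.19-fold, adjusted p = 0.0141). The NF-kB cofactors Nfkbiz and Bcl3 rose 3.69-fold and 3.13-fold, and the stress factor Atf3 3.31-fold (adjusted p = 0.00635, 0.0118 and 0.0421). Of 19 haematopoietic factors 3 rose and 1 fell (in the leave-one-out fits 1 to 3 rose and 0 to 1 fell). Irf4, a factor of plasma cells and dendritic cells, rose 5.60-fold, Ikzf1, of lymphoid cells, 4.61-fold and Irf8, of monocytes and dendritic cells, 2.37-fold, while Gata3 fell by 0.26 on the log2 scale. Of 17 tubule transcription factors none rose and 3 fell (0 to 7). Ppara, the regulator of fatty acid oxidation, was at 6.69, 6.96, 6.57, 7.24 and 6.50 in untreated mice and at 4.79, 5.33 and 6.52 after pristane, where mouse 2 (6.52) lay within the untreated range. It fell by 1.35 on the log2 scale (adjusted p = 0.0175), and Emx1 and Esrrg, a regulator of mitochondrial genes, fell by 0.80 and 0.64.

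Some enzymes of tubule metabolism were lower. Of 30 genes of amino acid and organic acid breakdown, 13 fell and none rose, 6 of them more than 2-fold, with a median log2 fold change of -0.80 (1 to 25 fell in the leave-one-out fits), and 17 did not pass. Besides Hpd and Bhmt these included Abat, the GABA transaminase, and Aldh4a1, of proline breakdown, with falls of 1.43 and 1.22 (adjusted p = 0.0377 and 0.0474). Of 14 genes of tryptophan and NAD, 3 fell (0 to 7) and 11 did not pass. These were Kynu and Kmo, enzymes of the kynurenine pathway, which were 4.31-fold and 2.97-fold lower, and Ido2, which opens it, 3.42-fold lower (adjusted p = 0.0358, 0.0341 and 0.0337). Kynu was at 8.55, 9.21, 8.84, 9.12 and 8.73 in untreated mice and 5.37, 6.39 and 8.97 after pristane. Mouse 2 (8.97) lay within the untreated range, mouse 1 (8.35) just below it and the other 7 at 7.18 or below. Of 10 genes of gluconeogenesis and fructose 4 fell (0 to 9) and 6 did not pass, with a median of -1.01. Those that fell were Hao2, Pck1, the fructokinase gene Khk, by 1.39 (adjusted p = 0.0329), and Aldh1l1, of folate metabolism, by 0.76 (adjusted p = 0.0198). The list thus held genes of other metabolism, and its count is not one of gluconeogenesis and fructose alone. The probe set named for Pck1, at most 4.37 on the 14 arrays, fell by 1.02 (adjusted p = 0.0403). Without pristane mice 4, 5 and 6 no gene of these 3 lists passed in limma, and 20, 5 and 10 were lower at an unadjusted p under 0.05.

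Among mitochondrial genes the falls were smaller. Of 25 genes of oxidative phosphorylation, 12 fell, none rose and none passed 2-fold, with a median log2 fold change of -0.44, and all 25 values were negative. Sdhb fell by 0.89, Ndufv1 by 0.78, Uqcrc1 by 0.72 and Ndufa9 by 0.69 (adjusted p = 0.0329, 0.0178, 0.0329 and 0.0274). The count ran from 0 to 20 over the leave-one-out fits, and without pristane mice 4, 5 and 6 it was 0 in limma, with 16 lower at an unadjusted p under 0.05. Of 28 genes of fatty acid oxidation and the peroxisome, 2 fell, Pipox by 0.62 and Hadhb by 0.58, and 0 to 12 did in the leave-one-out fits. Of 23 glycolysis genes, Pfkp, a phosphofructokinase, rose 1.67-fold and Gapdh fell by 0.25 on the log2 scale (in the leave-one-out fits 1 to 5 rose and 0 to 3 fell), and the median was -0.02. Of 21 genes of oxidative stress and metallothioneins 6 fell and 1 rose (0 to 10 fell). Gpx6 fell by 1.67, the superoxide dismutases Sod2 and Sod3 by 0.95 and 0.94 and the quinone reductase Nqo1 by 0.76 (adjusted p = 0.047, 0.0458, 0.0318 and 0.017). Of 26 cytochrome P450, glutathione and glucuronosyl transferases 5 fell and 2 rose (1 to 11 fell). Gsta2 fell by 1.06, next to Gsta4, while Cyp1b1 rose 2.25-fold.

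Transporters of several tubule segments were among the lower genes. Of 28 solute carriers of the proximal tubule, 4 fell and 1 rose, with a median log2 fold change of -0.81 and 27 negative values (0 to 17 fell in the leave-one-out fits). Without pristane mice 4, 5 and 6 none passed in limma, and 14 were lower at an unadjusted p under 0.05. Slc22a7, an organic anion transporter, was at 10.62, 10.92, 10.57, 10.81 and 10.61 in untreated mice and at 6.59, 8.59 and 10.55 after pristane. Mice 1 (10.38) and 2 (10.55) lay just under the untreated mice and the other 7 at 9.42 or below, for a fall of 2.09 (adjusted p = 0.0482, lost in 12 of 14 fits). Slc13a3, a dicarboxylate transporter, fell by 1.78, the glucose transporter Slc5a2 by 1.12 and the monocarboxylate transporter Slc5a8 by 0.99 (adjusted p = 0.0436, 0.0474 and 0.021). Of 18 genes of endocytosis and the brush border 3 fell (0 to 11), the water channel Aqp1 by 0.98, the scaffold Pdzk1 by 0.93 and the endocytic adaptor Dab2 by 0.65.

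Of 25 genes of the loop, distal tubule and collecting duct, 7 fell and none rose (0 to 15 in the leave-one-out fits). Aqp4, a basolateral water channel, was at 10.67, 10.41, 10.45, 10.51 and 11.05 in untreated mice and at 6.84, 8.40 and 10.54 after pristane. Mouse 2 (10.54) lay within the untreated range, mouse 1 (9.21) below it, and the fall was 2.22 (adjusted p = 0.0233). Of the distal convoluted tubule, Calb1, which binds calcium, fell by 1.09, the sodium chloride cotransporter Slc12a3 by 1.08 and the magnesium channel Trpm6 by 1.07 (adjusted p = 0.0318, 0.0492 and 0.0384). Pvalb, placed among skeletal muscle markers and also made in the distal tubule, ranged from 3.76 to 10.93 after pristane and from 10.68 to 11.28 in untreated mice, and did not pass (log2 fold change -3.39, adjusted p = 0.0757). Slc4a1, placed among red cell markers and also the anion exchanger of intercalated cells, was at 8.33 to 8.47 in untreated mice and 5.11 to 8.43 after pristane and fell by 2.03 (adjusted p = 0.0305), and it was the 1 of 6 red cell genes measured that passed. Of 19 genes of the renin-angiotensin system and kidney hormones 3 fell and 1 rose (0 to 7 fell). Npr3, the natriuretic peptide clearance receptor, fell by 1.18 and Kl, the FGF23 coreceptor of the distal tubule, by 1.17 (adjusted p = 0.0377 and 0.0463). The other that fell was Edn3, by less than 2-fold. Angiotensinogen, Agt, rose by less than 2-fold, a call lost without untreated mouse 3.

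**Figure D3:**
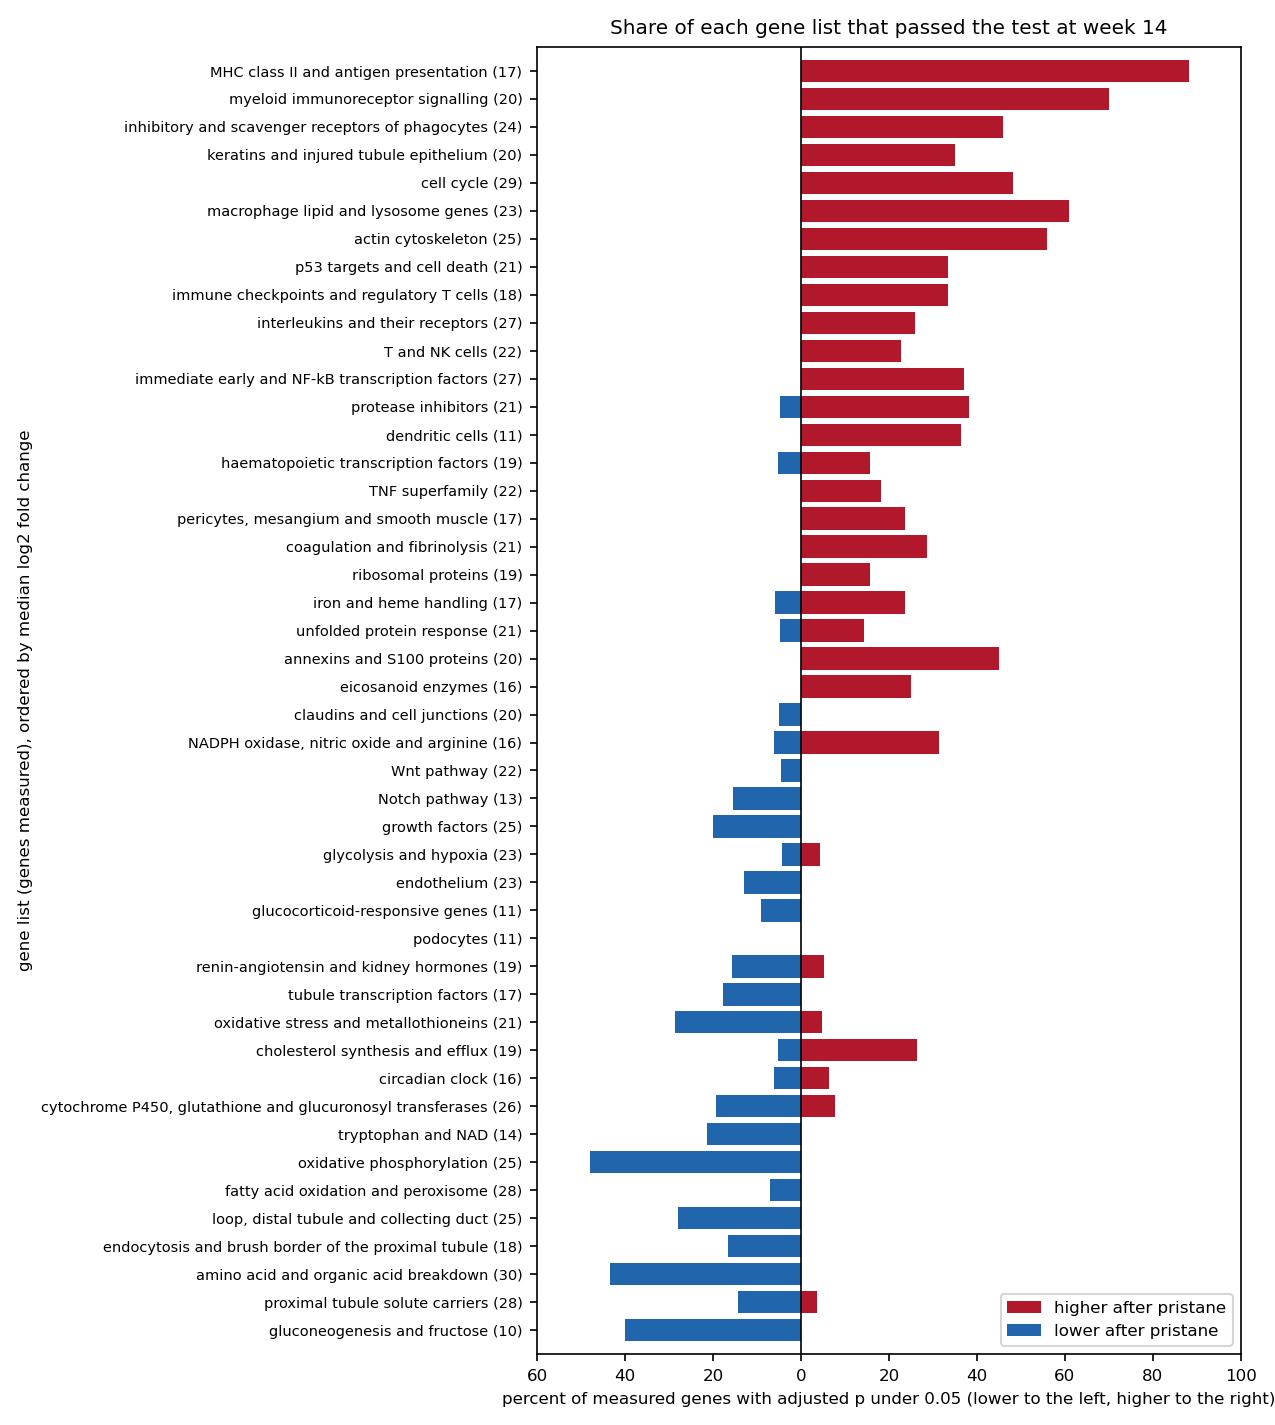
Percent of the measured genes of each of 46 gene lists outside the processes the study's text covers (y axis, number measured in brackets, ordered by median log2 fold change) that were higher (red, right) or lower (blue, left) after pristane at an adjusted p under 0.05. Antigen presentation has the largest share higher (15 of 17 genes), oxidative phosphorylation has 12 of 25 lower, and none of 11 podocyte genes passed.

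Of 19 genes of cholesterol synthesis and efflux, 5 rose and 1 fell (3 to 5 rose and 1 to 6 fell in the leave-one-out fits). Ch25h, which makes 25-hydroxycholesterol, rose 5.03-fold, the lipid transfer protein Pltp 3.14-fold, the sterol exporter Abcg1 2.67-fold and Cyp7b1, which converts oxysterols, 1.83-fold (adjusted p = 0.00884, 0.0157, 0.0129 and 0.0296). The other that rose was Sqle, an enzyme of cholesterol synthesis (1.62-fold, adjusted p = 0.0194), and the 1 that fell was Srebf2, a transcription factor of cholesterol synthesis genes, by 0.43 (adjusted p = 0.00813). In all, 14 of the 19 values were negative. Of 25 growth factors 5 fell and none rose (0 to 8 fell). Vegfa, the endothelial growth factor that podocytes and tubules make, was at 8.61, 8.73, 8.96, 9.02 and 8.88 in untreated mice and at 7.40, 7.79 and 8.69 after pristane. Mice 1 and 2 (8.68 and 8.69) lay within the untreated range, and the fall was 0.93 (adjusted p = 0.0283). Bmp7 fell by 1.11, Fgf1 by 0.86 and Bmp4 by 0.58 (adjusted p = 0.0404, 0.0399 and 0.0397).

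Of 23 endothelial genes 3 fell and none rose (0 to 5 fell). The VEGF receptors Kdr and Flt1 fell by 0.67 and 0.72 on the log2 scale (adjusted p = 0.0263 and 0.0359), and Prox1, a factor of lymphatic endothelium, by 1.08 (adjusted p = 0.0421). In which cells of the kidney Prox1 was lower was not tested. For podocytes, none of 11 genes passed in limma, and 4 of them had an unadjusted p under 0.05, of which 2 were higher and 2 lower. The log2 fold changes ran from -0.75 for Clic3 (adjusted p = 0.140) to 0.66 for Cd2ap (adjusted p = 0.0538), a pair named for their size with the values in view. Of the most highly expressed members, Podxl had a log2 fold change of -0.20 (adjusted p = 0.524) and Synpo one of -0.33 (adjusted p = 0.252). Over the leave-one-out fits 0 to 1 podocyte genes rose and 0 to 2 fell. Without pristane mice 1 and 2, which were chosen by their arrays, 2 rose and 5 fell. Without pristane mice 4, 5 and 6 none passed in limma, and 1 was higher at an unadjusted p under 0.05. Of 17 genes of pericytes, mesangium and smooth muscle 4 rose and none fell (0 to 6 rose), namely Thy1 (4.61-fold), the matrix proteoglycan Dcn (2.18-fold), the PDGF receptor Pdgfrb (1.64-fold) and Mcam (1.56-fold). T cell genes such as Cd3g also rose on these arrays, and which cells of the kidney expressed Thy1 was not tested.

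The remaining lists held few genes that passed. Of 22 Wnt genes 1 fell, Sfrp1 by 0.40, of 13 Notch genes 2 fell, Hey1 by 0.63 and Nrarp by 0.61, and of 20 claudin and junction genes 1 fell, the gap junction gene Gjb1 by 1.16. In the leave-one-out fits 0 to 2, 0 to 3 and 0 to 2 genes of these lists fell. Of 21 genes of the unfolded protein response 3 rose, Asns (2.94-fold), Pdia4 (1.33-fold) and Hsp90b1 (1.23-fold), and 1 fell, Dnajc3 by 0.61 (1 to 4 rose and 0 to 2 fell). Of 19 ribosomal proteins 3 rose by at most 1.31-fold (0 to 7 rose). Among 16 clock genes Cry1 rose 1.41-fold and Cry2 fell by 0.61 (0 to 1 rose and 0 to 4 fell), and among 11 glucocorticoid-responsive genes Dusp1 fell by 0.50 (0 to 2 fell). Of 11 neutrophil genes, 1, the formyl peptide receptor Fpr2, rose (4.46-fold, adjusted p = 0.0377), a call lost in 11 of 14 fits. None of 12 genes of mast cells, basophils and eosinophils, none of 7 platelet genes and none of 7 genes of pancreas and spleen stroma passed limma's test, and 0, 1 and 1 of them had an unadjusted p under 0.05.

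The place of pristane mice 1 and 2 varied with the gene list. The mean log2 difference from the untreated mean over the 20 interferon genes was 1.62 in mouse 1 and 1.69 in mouse 2, and 2.14 to 3.39 in the others. Over inhibitory and scavenger receptors of phagocytes it was 0.46 and 0.86 against 1.33 to 1.88, and over MHC class II and antigen presentation 1.01 and 0.26 against 1.24 to 2.21. Over the genes of cell cycle it was 0.22 and 0.22 against 0.97 to 1.24, so both mice lay below untreated mouse 1 (0.47). Over amino acid breakdown it was -0.18 and -0.04 against -1.77 to -0.73, and over the solute carriers of the proximal tubule 0.00 and 0.01 against -1.79 to -0.50. Mice 1 and 2 thus lay above all untreated mice in the interferon, phagocyte and myeloid signalling lists. Over the phagocyte receptors mouse 1 did so only narrowly, at 0.46 against 0.44 in untreated mouse 1. They lay within 0.10 of the untreated range in the lists of tubule transport and metabolism. Over keratins and injured tubule epithelium mouse 1, at 0.48, lay above the untreated maximum of 0.32, and mouse 2, at 0.09, within the untreated range. In 416 of the 514 higher genes mice 1 and 2 held the lowest pair of pristane values, and in 166 of the 172 lower genes the highest pair. These counts describe the mice that stood apart and test nothing. Without both mice 28 of 30 amino acid genes, 24 of 25 genes of oxidative phosphorylation and 22 of 28 solute carriers fell, and 22 of 29 cell cycle genes rose, whereas the interferon count was 18 of 20 with and without them. Without pristane mice 4, 5 and 6, which leaves 6 mice against 5, 13 of 20 interferon genes rose, 6 of the 46 lists outside the study's processes held a gene that passed and 40 held none. Without mice 1, 2, 4, 5 and 6, 18 interferon, 14 MHC class II and 19 cell cycle genes rose, and 25 amino acid genes, 19 genes of oxidative phosphorylation and 18 solute carriers fell.

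**Figure D4:**
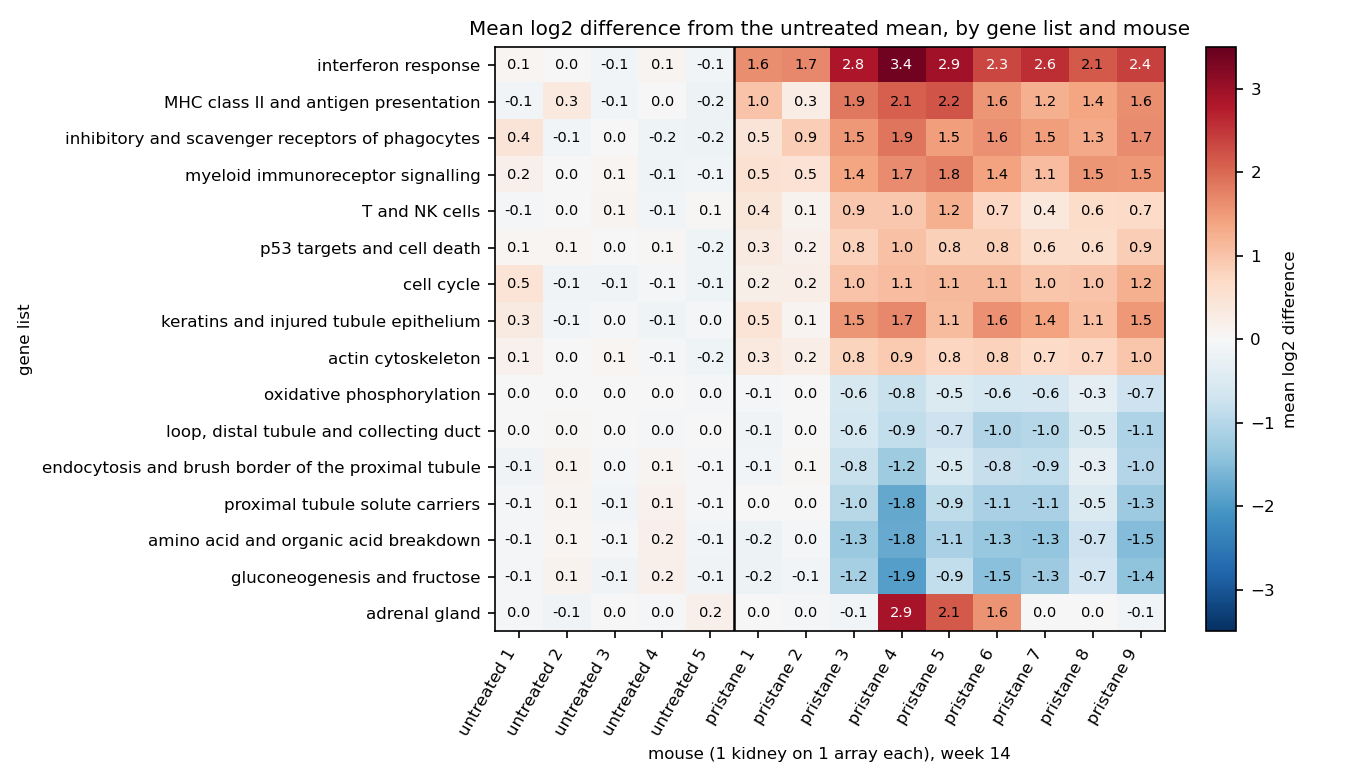
Mean log2 difference from the untreated mean (colour and number, red higher and blue lower) over the genes of 16 lists (rows) in each of the 14 mice of week 14 (columns). Pristane mice 1 and 2 are raised in the interferon row (1.62 and 1.69) and near 0 in the rows of tubule transport and metabolism. In the row of keratins and injured tubule epithelium they are at 0.48 and 0.09. The adrenal row at the bottom is raised in pristane mice 4, 5 and 6 alone.

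Promoter sequence was set beside these changes, from 250 bases before to 50 after the start site in the RefSeq promoter table of build GRCm38.p6, which held 13605 of the measured genes, 386 of the 514 higher and 129 of the 172 lower ones. The interferon-stimulated response element, searched as GAAANNGAA on both strands, stood in 16.1% of promoters of higher genes, 6.2% of those of lower genes and 7.31% of all. The PU.1 site GAGGAAGT, of the ETS factor of myeloid cells, stood in 8.81%, 2.33% and 2.97%, and the AP-1 site TGANTCA in 12.2%, 5.43% and 6.45%. The NF-kB consensus stood in 14.5% of promoters of higher genes, 9.3% of lower and 9.75% of all. The NF-Y box CCAAT stood in 32.6%, 40.3% and 38.4%. The HNF1 site GTTAATNAT, of factors that drive tubule and liver genes, stood in 4 of 129 promoters of lower genes (3.1%) and in 0.625% of all. It also stood in 4 of 386 promoters of higher genes (1.04%). Matches of different motifs overlapped in at most 9 promoters for any pair. These shares are a description of letters in a window and no test was made of them.

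**Figure D5:**
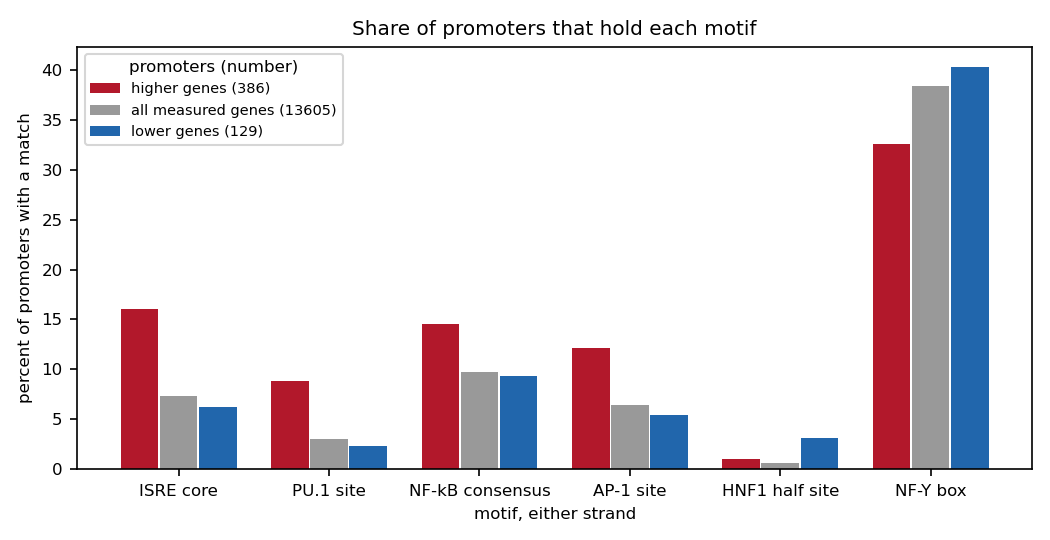
Percent of promoters (y axis) with at least 1 match to each of 6 motifs (x axis, either strand) among higher genes (red), all measured genes (grey) and lower genes (blue). The red bar is the tallest for the interferon element (16.1%), PU.1, NF-kB and AP-1, and the blue bar for HNF1 (3.1%) and NF-Y.

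For each motif the higher gene with the largest change that held it was taken, and for HNF1 the lower gene. All genes of a particular chromosome were left out of this choice, so a gene there with a larger change would not be shown. The promoters for the interferon, PU.1, NF-kB and HNF1 motifs are shown, since these carry the letters that the shares count. They are written 5′ to 3′ on the strand of the gene, with matches in capitals, which stand on the opposite strand in all 4. Ifit1, which interferon induces and which binds RNA of viruses, rose 23.8-fold (adjusted p = 0.000363) and its promoter at chr19:34640639-34640938 (plus strand) held 3 matches, of which a pair overlap. Cd72 (chr4:43454577-43454876, minus strand), Aoc1 (chr6:48895005-48895304, plus strand) and Slc10a2 (chr8:5105238-5105537, minus strand) held 1 match each. Slc10a2, a sodium bile acid transporter, fell by 1.27 on the log2 scale (adjusted p = 0.0334). Of the other motifs, AP-1 stood in the promoter of Ugt2b37 and the NF-Y box in that of Timp1, an inhibitor of matrix proteases that rose 23.6-fold (adjusted p = 0.00346).
Ifit1: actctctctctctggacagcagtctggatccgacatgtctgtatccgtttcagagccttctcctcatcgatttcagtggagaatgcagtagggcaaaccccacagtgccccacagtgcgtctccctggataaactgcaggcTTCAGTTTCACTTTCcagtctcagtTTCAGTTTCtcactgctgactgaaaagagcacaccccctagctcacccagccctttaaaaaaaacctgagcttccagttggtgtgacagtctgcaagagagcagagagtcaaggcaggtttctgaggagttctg
Cd72: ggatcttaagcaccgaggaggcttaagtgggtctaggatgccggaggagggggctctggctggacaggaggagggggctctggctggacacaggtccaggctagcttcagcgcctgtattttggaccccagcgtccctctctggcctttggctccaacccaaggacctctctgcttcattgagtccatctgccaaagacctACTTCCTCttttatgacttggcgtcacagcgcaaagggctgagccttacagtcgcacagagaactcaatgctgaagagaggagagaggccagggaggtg
Aoc1: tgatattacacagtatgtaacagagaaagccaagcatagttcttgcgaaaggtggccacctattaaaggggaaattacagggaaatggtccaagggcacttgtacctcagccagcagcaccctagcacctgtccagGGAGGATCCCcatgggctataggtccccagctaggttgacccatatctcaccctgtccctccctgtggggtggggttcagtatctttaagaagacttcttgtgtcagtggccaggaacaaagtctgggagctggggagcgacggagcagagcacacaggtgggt
Slc10a2: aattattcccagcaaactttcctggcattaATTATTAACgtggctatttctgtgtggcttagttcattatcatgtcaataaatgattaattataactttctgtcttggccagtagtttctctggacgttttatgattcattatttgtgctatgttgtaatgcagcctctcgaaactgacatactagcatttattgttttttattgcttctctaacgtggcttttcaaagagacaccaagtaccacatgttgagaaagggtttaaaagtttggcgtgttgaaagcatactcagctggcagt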

How the data were processed

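RNA of whole kidney of 95 mice was hybridised to Affymetrix HT MG-430 PM arrays, 1 array a mouse. The authors deposited log2 values, which were used as given. Their methods name RMA in R with Bioconductor for mouse arrays, and the submitters' processing notes name RMA and Partek, so the software that made the values is not settled. Of 45141 probe sets, 104 controls were left out, and 45037 were tested. Of these, 28898 had 1 gene symbol in the platform annotation, 551 several and 15588 none. A gene was represented by its probe set with the highest mean over the 95 arrays (17097 genes).

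The 9 pristane and 5 untreated arrays of week 14 were compared with limma 3.58.1 (lmFit and eBayes, R 4.3.3), without covariates, and p-values were adjusted by Benjamini-Hochberg over all probe sets. A gene was called at an adjusted p under 0.05 and over 2-fold. No batch stands in the labels. The study's methods describe 2 independent longitudinal experiments, and the labels do not say which mice came from which. The labels do not say more than 1 kidney a sample, so p-values measure the spread between these samples. The number of arrays limits the precision.

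The comparison and the gene lists were chosen with earlier results of these data known. Genes were named by rule: the 15 largest rises and falls and the 5 smallest p-values in each direction outside the study's processes, up to 4 genes a list that passed, by absolute change (where none passed, the 2 with the highest mean), and for each motif the called gene with the largest change that held it. The choice by motif was made among higher genes, or lower genes for HNF1, and all genes of a particular chromosome were left out of it. Outside means on no list, and under no symbol prefix, of those processes. The rule does not cover Prf1, Gzmb, Umod, Kap, Srebf2, Sqle, Clic3 and Cd2ap, which were picked with their values in view. The script was tested on simulated data.

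Same-numbered mice of the 2 groups had correlations of -0.14, 0.38, -0.04, -0.20 and 0.12 in their deviations from the group means over 5000 probe sets, so replicate numbers were not taken as pairs. Alternatives changed scaling, filtering, samples, variance model, covariates, gene summary and thresholds. Promoter sequences came from RefSeq, build GRCm38.p6.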

Additional observations from a re-analysis of the deposited data

Results flagged for a closer look

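In 28 of 396 groups of week 14 values, for the genes and gene lists named above, 1 mouse lay far from the others of its group by Dixon's criterion, which chance alone meets in about 1 in 20 groups. Values are log2 values, with the range of the other mice of the group.

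Untreated mouse 1 held many of them. Its Mki67 was 6.53 (others 4.26 to 4.88), its Top2a 5.54 (3.57 to 3.98) and its mean over the cell cycle list 0.47 (-0.14 to -0.06). Its mean over the inhibitory and scavenger receptors of phagocytes was 0.44 (-0.17 to -0.01), its Ms4a4c 3.55 (3.16 to 3.26), its Cd86 3.63 (3.22 to 3.32) and its Ncf4 4.08 (3.93 to 3.93). Fgg was 7.95 there (7.02 to 7.18), Il1rn 3.36 (2.51 to 2.65) and Serping1 9.35 (8.73 to 8.83). Pltp was 6.44 (6.09 to 6.09), Cyp7b1 5.74 (4.97 to 5.15), and Gsta2, the low one of these, 13.09 (13.44 to 13.56).

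In other untreated mice, Egr2 was 4.09 in mouse 2 (4.43 to 4.47) and Hpgds 3.70 in mouse 2 (3.65 to 3.66). Cd3g was 3.15 in mouse 3 (2.38 to 2.48), and Icos, at 2.65 against 2.66, and Gzmb, at 2.21 with all others at the floor, differed in mouse 3 by less than 0.02. Hpd was 11.70 in mouse 4 (10.41 to 10.64). In mouse 5, Ctss was 7.92 (8.60 to 8.84), Lif 3.85 (3.76 to 3.77) and Pdia4 6.07 (6.26 to 6.31).

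Among pristane mice, Hey1 was 5.97 in mouse 1 (5.04 to 5.48). In mouse 2, Dcdc2a was 4.43 (6.01 to 7.49) and Serpina6 6.49 (2.63 to 4.16). Eif2s3y was 2.24 in mouse 3 (2.21 in all others), Gzmb 4.96 in mouse 5 (2.21 to 3.17) and Hsp90b1 10.69 in mouse 7 (10.88 to 11.08).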

How the results depend on the processing

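All 686 genes kept their direction under each alternative in which they were tested (634 of them with the filter at the 40th percentile). The counts of 514 higher and 172 lower genes depended on the setting. Lower genes were 266 with the filter, 273 with all groups in a single fit and 267 with array weights. With no minimum fold change, 1192 were higher and 820 lower, and at an adjusted p under 0.01, 163 and 2. With the adrenal signal as covariate, 250 were higher and 3 lower, and with RNA quality as covariate 64 and 0 (2169 and 1936 at an unadjusted p under 0.05). Leaving out 1 mouse at a time gave 297 to 651 higher and 4 to 374 lower genes. Chosen after the data were seen, leaving out pristane mice 4, 5 and 6 gave 67 and 0, leaving out mice 1 and 2 gave 510 lower, and leaving out all 5 gave 458 lower. The cause of these shifts was not tested. The replicate numbers did not pair the mice, and with the replicate number as a block, 0 genes were called in either direction in limma's test (smallest adjusted p = 0.0781), with 1698 higher and 1326 lower at an unadjusted p under 0.05. Under median centring all genes shifted by -0.04 on the log2 scale, and the split of calls was 524 higher and 244 lower, against 514 and 172. Of the array values of week 14, 18.8% lay at the floor, where differences cannot be measured.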
